A study of Mus musculus with 19 samples.

Results

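The comparison described here asks what the loss of Desert hedgehog (Dhh) adds in mouse ovaries that already lack Indian hedgehog (Ihh). It was made on 14 of the 19 Affymetrix Mouse Genome 430 2.0 arrays of the study, all of whole ovaries from mice aged 2 months: 3 double knockout arrays lacking Ihh and Dhh (Ihh_Dhh_dKO 1 to 3, here DKO), 3 of the 4 Ihh knockout arrays (Ihh_KO 1 to 3, here Ihh KO) and 8 controls heterozygous for both genes (Ihh_Dhh_dhet 1 to 8). Each mutant was set against the controls hybridized with it, DKO against controls 1 to 4 and Ihh KO against controls 5 to 8. The difference between those changes, (DKO minus controls 1 to 4) minus (Ihh KO minus controls 5 to 8) in log2 signal, is called the added-loss difference below. The fourth Ihh KO array was left out because its Dhh signal contradicts its label. The Ihh KO arrays were thus selected on their Dhh signal, and Dhh values are given without a test. The Dhh KO arrays were not used in this comparison. The labels state that deletion was specific to the ovary, but give neither the Cre driver nor the Dhh genotype of the Ihh KO mice, and they do not say whether ovaries were pooled. The controls carry 1 mutant copy of each gene, so they are not wild type.

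Hedgehog ligands are secreted proteins that bind the receptor Patched, encoded by Ptch1, which frees Smoothened to signal through the GLI transcription factors. In the ovary Dhh and Ihh are made by granulosa cells of growing follicles, and the cells that respond lie outside the follicle, in the theca and the stroma, where Gli1, Ptch1 and Hhip are classical targets. Theca cells make androgens from cholesterol, and the theca also holds the blood vessels and the contractile cells that surround the follicle. Whole ovaries were measured, so fewer cells of a type and less RNA per cell cannot be told apart in any result below.

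The arrays form sets that the labels do not mention. The 3'/5' signal ratio of the BioC hybridization control was 0.987 to 1.06 on the 7 arrays of the DKO set and 0.737 to 0.781 on the 7 arrays of the Ihh KO set. Gapdh, whose 3'/5' ratio rises as RNA degrades, gave a ratio of 1.75 ± 0.0503 (SD, n = 4) in controls 1 to 4 and 1.72 ± 0.0558 (n = 3) in DKO. It was 1.94 ± 0.0536 (n = 4) in controls 5 to 8 and 2.07 ± 0.262 (n = 3) in Ihh KO, where Ihh KO 3 had the highest value, 2.37. The part of this ratio in the results was not tested. Controls also matched across sets: the deviations of control 1 with 5, 2 with 6, 3 with 7 and 4 with 8 from their set means correlated across genes at 0.540 to 0.768, and the other 12 pairs of controls at -0.632 to 0.159. These correlations run across genes, which do not replicate each other, and the labels do not say whether matched arrays share RNA. Deviations common to a matched pair largely cancelled in the added-loss difference through the subtraction itself. The model carried a correlation of 0.648 between matched controls, which acted on the SE and not on the estimate. For Gli1, in a fit of all single-gene probe sets, the estimate was -2.504 with and without the matching. Its SE was 0.498 with it and 0.543 without it.

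In the added-loss difference the genes called lower included 10 of 17 sterol synthesis, 4 of 8 steroidogenic and 3 of 13 endothelial genes. Those called higher included 2 of 6 oviduct and 2 of 12 surface epithelial genes. The median change of the sterol genes was 0.80 in Ihh KO and -0.33 in DKO, where 1 of the 17 was called lower. None of these list calls remained without the matching of controls. Of 12482 genes tested with limma at an adjusted p of 0.05, 223 had a higher added-loss difference (1.79% of the genes) and 220 a lower one (1.76%). Dhh is in the second count, which is not read as a result for that gene. The median difference over all genes was 0.05 on the log2 scale. In each arm separately, 172 genes were higher (1.38%) and 189 lower (1.51%) in DKO than in controls 1 to 4, against 9 higher (0.0721%) and 23 lower (0.184%) in Ihh KO than in controls 5 to 8. The genes were called on the difference between the arms, and that selection by itself favours estimates of opposite sign. The signs in the arms are therefore described and not read as a result. Of the 443 called genes 11 passed in the Ihh KO arm, so for most no direction after Ihh loss was established. Among the 223 higher genes, 200 had estimates of opposite sign in the 2 arms, with medians of 0.70 in DKO and -0.44 in Ihh KO. Among the 220 lower genes, 190 had opposite signs, with medians of -0.46 in DKO and 0.40 in Ihh KO. Neither arm passed its own test in 142 of the genes called higher and 151 of those called lower. The counts rest on the matching of the controls: without it the genes called, Dhh set aside, were Aebp1 and Elovl5, both lower. Of the 57 called genes named by rule, Dhh aside, Aebp1 alone kept its call without the matching, and all 57 kept their direction. Other settings also ended calls among these 57 genes: 29 were lost with quantile normalization, 24 with no intensity trend and 21 with no filter on dim probe sets. The counts also rest on single arrays. Leaving out 1 array gave 41 calls without Ihh KO 2, 61 without DKO 3, 123 without DKO 2 or without control 3, 152 without control 2, 154 without control 5, 167 without control 7, 171 without control 6, 188 without control 1, 229 without Ihh KO 1, 239 without Ihh KO 3 and 823 without control 4. With each array's median set to the same value the 443 calls became 339, with 66 higher and 273 lower, since that scaling moved the median difference of all genes from 0.05 to -0.17.

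**Figure D1:**
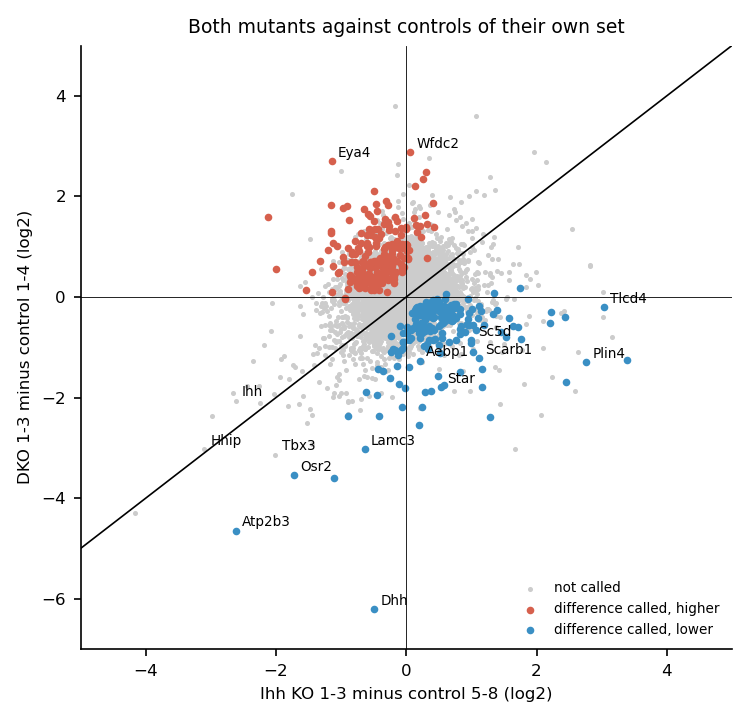
Log2 change of each gene in Ihh KO 1 to 3 against controls 5 to 8 (horizontal axis) and in DKO 1 to 3 against controls 1 to 4 (vertical axis); points on the diagonal line changed equally. Coloured points are the 223 genes called higher and the 220 called lower in the added-loss difference. Most lie in the quadrants of opposite sign, which selection on the difference by itself favours.

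A set of 30 genes other than Dhh kept its call in every one of the 14 fits that left out 1 array, 11 of them higher and 19 lower. In 23 of the 30 the DKO arm passed its own test, and in 5 the Ihh KO arm did. The lower genes among them included Aebp1, Adcy7, Lamc3 and Sorcs2, Scarb1, Sc5d, Hmgcs1 and Ebp, Rgs5 and Tcim, all described below. Chosen after their values were seen, further examples were the fatty acid elongases Elovl5 (added-loss difference -1.01, SE 0.15, adjusted p = 0.00798, limma) and Elovl1 (-0.997, SE 0.15, adjusted p = 0.00798). Aplnr, the apelin receptor of endothelial cells, averaged 1131 ± 333 in DKO (SD, n = 3) against 2258 ± 131 in controls 1 to 4 (n = 4), and 2678 ± 401 in Ihh KO against 2127 ± 299 in controls 5 to 8, a difference of -1.36 (SE 0.22, adjusted p = 0.0114). Pcolce, which enhances procollagen processing, differed by -1.26 (SE 0.21, adjusted p = 0.0114). Among the higher genes, Nppc, the C-type natriuretic peptide precursor that granulosa cells use to hold oocytes in meiotic arrest, averaged 2377 ± 539 in DKO against 953 ± 336 in controls 1 to 4, and 405 ± 106 in Ihh KO against 566 ± 150 in controls 5 to 8 (difference 1.82, SE 0.30, adjusted p = 0.0114). Pcsk6, a proprotein convertase, averaged 1903 ± 563 in DKO against 648 ± 107, and 531 ± 114 in Ihh KO against 579 ± 75.2 (difference 1.65, SE 0.25, adjusted p = 0.00798). Cgn, a tight junction protein, differed by 1.53 (SE 0.27, adjusted p = 0.0148).

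The 2 knockout genes come first. Dhh gave signals of 3.85, 4.28 and 14.2 in DKO against 606 to 1371 in controls 1 to 4, and 709, 527 and 636 in Ihh KO 1 to 3 against 621 to 1085 in controls 5 to 8. The DKO mean was 0.704% of its controls and the Ihh KO mean 69.4%, so the Dhh transcript was near the lowest signals in DKO, while 2 of the 3 Ihh KO arrays overlapped their controls. Ihh gave 51.6, 36.3 and 52.7 in DKO against 139 to 425 in controls 1 to 4, and 12.5, 35.1 and 43.5 in Ihh KO against 160 to 238 in controls 5 to 8. Every mutant array lay below every control of its set, and Ihh fell in both arms, by 2.06 on the log2 scale in DKO (adjusted p = 0.013, limma) and by 2.62 in Ihh KO (adjusted p = 0.016). The arms did not differ detectably for Ihh (difference 0.56, 95% interval -0.50 to 1.61, adjusted p = 0.53). Where the probes lie relative to the deleted exons is not given in the sources used here.

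None of the 4 Hedgehog targets above the intensity filter, Hhip and Ptch1 among them, was called in the added-loss difference. Of these 4, 2 estimates were above 0 and 2 below (median -0.11). Of the 3 targets under the filter Gli1 was called. Foxf2 (0.996, adjusted p = 0.248) and Foxl1 (0.286, adjusted p = 0.747) lay above 0 and were not called (limma over all single-gene probe sets with no filter). Hhip, a membrane protein that binds and limits the ligands, was at 16.1, 16.2 and 11.1 in DKO against 123 to 284 in its controls, and at 49.9, 17.1 and 9.43 in Ihh KO against 192 to 281. It fell by 3.02 in DKO (adjusted p = 0.00086) and by 3.10 in Ihh KO (adjusted p = 0.0031), and the added-loss difference of 0.08 had an interval from -0.90 to 1.06. Hhip stood at 10.7% of its controls in Ihh KO and at 8.23% in DKO, and no further step was detectable. Ptch1, the receptor and itself a target, was at 2128, 2381 and 2105 in DKO against 3763 to 4048, and at 3226, 2950 and 3582 in Ihh KO against 4236 to 5104. All 6 mutant arrays were below all controls of their set, at 56.5% of the control mean in DKO and 72.5% in Ihh KO. The added-loss difference of Ptch1, -0.36 (SE 0.12, interval -0.61 to -0.11), did not pass adjustment over all genes (adjusted p = 0.096), and a dimmer probe set of Ptch1 gave 0.21 (adjusted p = 0.68). Gli1, the transcription factor whose mRNA is the usual readout of the pathway, lay below the intensity filter and was tested among all 34945 single-gene probe sets, where 190 were called lower (0.544%). Gli1 was at 13.3, 4.78 and 3.91 in DKO against 93.9, 144, 93.2 and 157 in controls 1 to 4. It was at 48.1, 36.0 and 17.7 in Ihh KO against 38.9, 107, 53.0 and 41.5 in controls 5 to 8, where the groups overlap. In that fit Gli1 fell by 3.19 in DKO (adjusted p = 0.00125), its change of -0.69 in Ihh KO did not pass (adjusted p = 0.44), and the added-loss difference was -2.50 (SE 0.50, adjusted p = 0.032). Controls 5 to 8 averaged 60.1 ± 31.9 for Gli1 against 122 ± 33.4 in controls 1 to 4, so the sets themselves differed at this probe set. The adjusted p of Gli1 was 0.0895 without the matching of controls, 0.0974 without DKO 3, 0.0949 without Ihh KO 2, 0.0615 without DKO 2 or Ihh KO 1, and 0.0521 to 0.0556 without control 1, 2, 3, 5 or 7, with estimates of -2.83 to -2.25 in all fits that left out 1 array. Its fall in DKO passed in each of them.

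Few calls were made in the rest of the pathway. Of 6 receptors and coreceptors tested none passed in the added-loss difference, and their median was 0.03. Smo, the signal transducer, was at 2192 to 2788 in DKO and 2935 to 3795 in Ihh KO, and its difference of -0.03 had an interval from -0.35 to 0.30. The coreceptors Gas1, Boc and Cdon differed by -0.56, 0.13 and 0.20, with adjusted p of 0.20, 0.78 and 0.82. Of 14 transducers and processing factors 1 passed (1.79% of all genes were called higher). Their median was 0.35 with 10 estimates above 0, against 0.05 and 56.2% over all genes. Disp1, which releases lipid-modified ligand from the producing cell, was at 401, 472 and 450 in DKO against 288 to 341, and at 246, 208 and 230 in Ihh KO against 231 to 317 (difference 0.84, adjusted p = 0.031). That call was lost without control 1, 3, 5, 7 or 8, Ihh KO 2 or any of the DKO arrays, with values from 0.24 (without control 3) to 0.80 (without control 5) and adjusted p from 0.0519 to 0.668. Its 2 probe sets were almost equally bright, at mean log2 signals of 8.29 and 8.28, and the dimmer one gave 0.33 (adjusted p = 0.46). That one represented Disp1 in 6 of those 9 fits, since leaving out 1 array made it the brighter. The transcription factors Gli2 and Gli3 differed by 0.04 and 0.64, with adjusted p of 0.94 and 0.094. The targets Foxf1 and Bmp4 differed by -0.30 and 0.61 (adjusted p = 0.61 and 0.19).

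**Figure D2:**
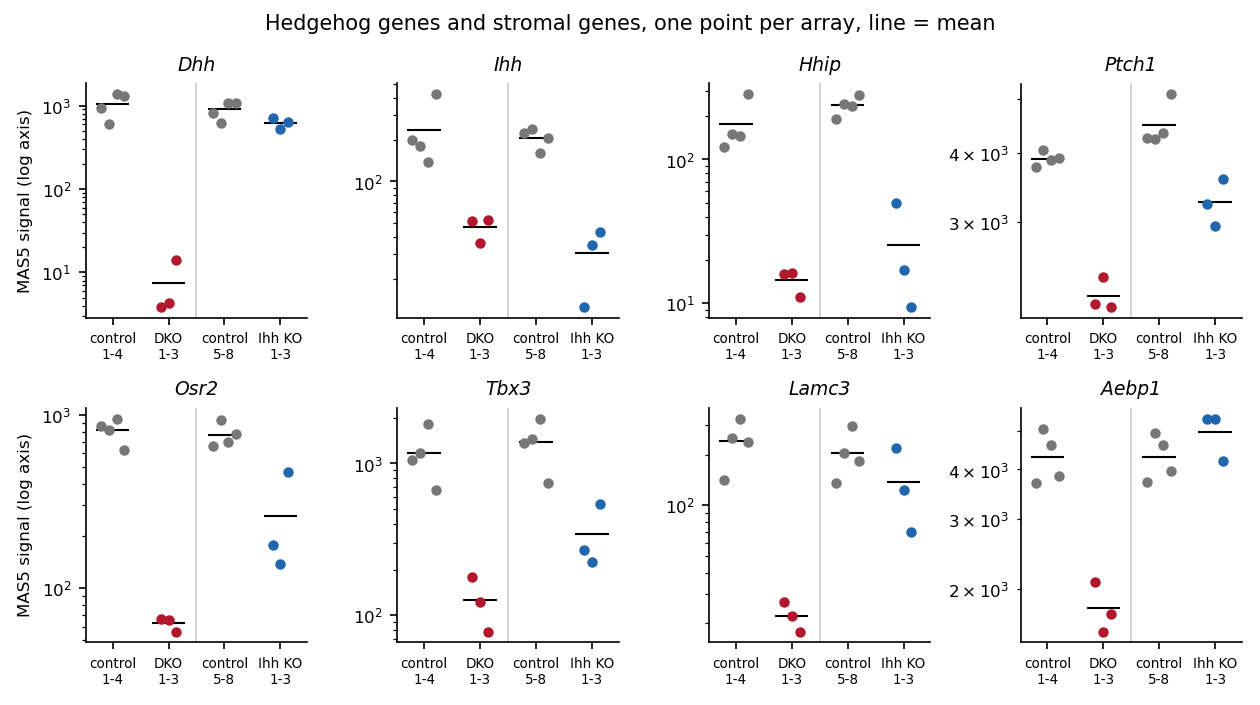
MAS5 signal (log axis) of 8 genes in the 4 groups of arrays, 1 point per array, with a line at the group mean; a vertical line parts the 2 hybridization sets. Hhip is low in both mutants, Osr2 and Tbx3 are lower in DKO than in Ihh KO and below the controls in both, and Dhh and Aebp1 lie clear of the controls in DKO alone.

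Genes that fell after Ihh loss and fell further in DKO were few. Only Osr2 and Atp2b3 were called lower in both arms and in the added-loss difference, while 15 genes were called lower in both arms without a called difference between them. Osr2, a zinc-finger transcription factor of mesenchyme, gave 66.5, 65.7 and 56.1 in DKO against 864, 819, 951 and 630 in controls 1 to 4. It gave 176, 138 and 469 in Ihh KO against 665, 935, 700 and 774 in controls 5 to 8. Osr2 thus stood at 7.69% of its controls in DKO and 34.0% in Ihh KO, with no overlap between the mutants or with the controls (difference -1.83, SE 0.39, adjusted p = 0.029). The adjusted p of Osr2 rose to 0.0569 without control 3, 0.0505 without control 5, 0.0514 without control 7, 0.0550 without DKO 2 and 0.0820 without DKO 3. Atp2b3, a plasma membrane calcium pump, gave 7.71, 10.1 and 23.3 in DKO against 307 to 817 and 28.7, 16.9 and 82.4 in Ihh KO against 164 to 423 (difference -2.02, SE 0.53, adjusted p = 0.049), and 2 of the 14 fits that left out 1 array kept that call. Tbx3, a T-box repressor, followed the same order, at 178, 123 and 78.2 in DKO and 270, 223 and 537 in Ihh KO against 670 to 1817 and 743 to 1973 in their controls. Its difference of -1.12 (SE 0.41) did not pass (adjusted p = 0.13).

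Several genes among the smallest p-values fell in DKO without passing in the Ihh KO arm. Lamc3, the laminin gamma 3 chain of basement membranes, was at 26.7, 22.1 and 17.9 in DKO against 142 to 327 in controls 1 to 4. It was at 219, 124 and 69.3 in Ihh KO against 136 to 295 in controls 5 to 8, so the Ihh KO arrays overlapped their controls while the DKO arrays lay well below theirs. The added-loss difference of Lamc3 was -2.39 (SE 0.40, adjusted p = 0.013), with DKO at 9.28% and Ihh KO at 67.1% of control. Aebp1, a secreted regulator of collagen fibre assembly, was at 2076, 1560 and 1725 in DKO against 3695 to 5067. In Ihh KO it was at 5374, 5362 and 4214 against 3724 to 4942, and its difference of -1.47 (SE 0.15, adjusted p = 0.00052) was called also without the matching of controls (adjusted p = 0.0227). Adcy7, an adenylate cyclase, was at 498, 527 and 456 in DKO against 1170 to 1872, and at 1075, 1164 and 1425 in Ihh KO against 1463 to 1767 (difference -1.11, SE 0.18, adjusted p = 0.011). Dimmer probe sets of Adcy7 gave -0.48 and -0.80 and did not pass (adjusted p = 0.20 and 0.069, limma over all single-gene probe sets with no filter). Sorcs2, a sorting receptor of the VPS10 family, was at 151, 140 and 179 in DKO against 549 to 1009, and at 506, 457 and 340 in Ihh KO against 547 to 992 (difference -1.46, SE 0.24, adjusted p = 0.012). All 3 Ihh KO arrays were below their controls for Adcy7 and for Sorcs2, but the Ihh KO arm passed for neither (adjusted p = 0.31 and 0.077). Among 18 stromal transcription factors 7 were called lower (1.51% of all genes were) and 2 higher (1.38%) in the DKO arm. The Ihh KO arm had 2 called lower (0.184%). In the added-loss difference 2 were called lower (1.76%) and 1 higher (1.79%), with a median of -0.28. Beside Osr2 these were Nr2f2, a nuclear receptor of theca and stroma (difference -0.54, adjusted p = 0.048), and Gata6, a GATA factor of steroidogenic cells, which was at 2533, 2448 and 2585 in DKO against 1409 to 1510, and at 2041, 1763 and 1945 in Ihh KO against 1452 to 1719 (difference 0.47, adjusted p = 0.037). Dimmer probe sets of Nr2f2 gave -1.36 to -0.28 (adjusted p = 0.070 to 0.60). Those of Gata6 gave 0.36 and 0.998 (adjusted p = 0.24 and 0.17). None of them passed (limma over all single-gene probe sets with no filter). With quantile normalization the list had no lower call and 1 higher. The list lost all 3 calls without control 3, control 5, control 7, DKO 2 or DKO 3.

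Sterol synthesis genes gave the most calls of any list. They turn acetyl-CoA into cholesterol, and SREBP2 with the CCAAT-binding factor NF-Y is known to drive them together when sterol is low. Their promoters are shown because 10 of the 17 tested members were called in 1 direction. The sequences are the 250 bases upstream of the start in RefSeq, build GRCm38.p6, at chr13:119690101-119690350 (plus strand) for Hmgcs1, chr13:8885356-8885605 (plus) for Idi1, chr9:42264301-42264550 (minus) for Sc5d and chrX:8193513-8193762 (minus) for Ebp. Capitals mark CCAAT or its reverse complement ATTGG and, in Hmgcs1, the sterol element CACCCCAC.
Hmgcs1: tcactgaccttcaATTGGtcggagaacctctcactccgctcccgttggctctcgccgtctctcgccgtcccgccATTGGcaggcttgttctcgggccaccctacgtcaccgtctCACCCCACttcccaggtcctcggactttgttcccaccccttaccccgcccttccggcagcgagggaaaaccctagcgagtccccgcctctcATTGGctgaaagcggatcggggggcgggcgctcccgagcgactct
Idi1: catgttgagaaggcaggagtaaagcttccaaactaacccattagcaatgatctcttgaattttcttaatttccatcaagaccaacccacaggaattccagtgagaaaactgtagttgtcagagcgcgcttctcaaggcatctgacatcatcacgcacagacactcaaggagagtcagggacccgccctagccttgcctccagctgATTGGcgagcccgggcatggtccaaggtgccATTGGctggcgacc
Sc5d: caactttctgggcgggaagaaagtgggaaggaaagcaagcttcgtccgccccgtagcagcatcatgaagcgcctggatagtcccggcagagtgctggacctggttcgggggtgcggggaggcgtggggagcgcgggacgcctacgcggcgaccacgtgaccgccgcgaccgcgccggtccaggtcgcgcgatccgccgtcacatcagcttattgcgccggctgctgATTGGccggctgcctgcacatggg
Ebp: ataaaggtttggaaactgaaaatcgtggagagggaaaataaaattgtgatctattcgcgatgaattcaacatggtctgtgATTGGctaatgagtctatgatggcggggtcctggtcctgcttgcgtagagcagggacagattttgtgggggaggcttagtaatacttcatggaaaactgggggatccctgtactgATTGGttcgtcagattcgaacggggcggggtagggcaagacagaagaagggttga
CCAAT, searched on both strands, occurred in 33.9% of 32851 windows of this length. It occurred in the windows of all 8 called members that had an entry (for Dhcr7 in 1 of its windows) and of all 5 uncalled members that had one. CACCCCAC occurred in 2.58% of all windows and in 1 of the 8. These matches describe the letters and say nothing of binding.

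Of the 17 cholesterol genes 10 were lower in the added-loss difference (1.76% of all genes were) and none was higher. The median difference was -1.18, made up of 0.80 in Ihh KO and -0.33 in DKO, so the larger share of it lay on the side of Ihh KO. Within the arms, 1 of the 17 was called higher in Ihh KO (Ebp) and 1 lower in DKO. Sc5d, which makes the last double bond of the sterol ring in this branch, was at 961, 758 and 726 in DKO against 1240 to 1758, and at 2992, 4729 and 2070 in Ihh KO against 1351 to 1796. DKO arrays lay below and Ihh KO arrays above all of their controls, at 55.1% and 211% of the control means (difference -1.85, SE 0.25, adjusted p = 0.0053). Hmgcs1, which makes HMG-CoA at the start of the pathway, was at 5153, 4563 and 5799 in DKO against 5421 to 7768, and at 9274, 12466 and 8892 in Ihh KO against 5667 to 7123 (difference -1.03, SE 0.16, adjusted p = 0.0080). Ebp, the sterol isomerase, was at 585, 669 and 683 in DKO against 673 to 834, and at 918, 1026 and 704 in Ihh KO against 461 to 523 (difference -1.04, SE 0.16, adjusted p = 0.011). Idi1, the isopentenyl isomerase, differed by -1.19 (SE 0.23, adjusted p = 0.019), with 2282, 1862 and 1979 in DKO and 8060, 9280 and 4912 in Ihh KO. The other 6 called members were Fdps, Lss, Cyp51, Dhcr7, Nsdhl and Fdft1, with differences from -1.67 to -1.18. Of the 7 that did not pass, Mvk was the one with a value above 0 (0.24, adjusted p = 0.81), and Srebf2, which encodes the regulator itself, had -0.42 (adjusted p = 0.20).

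The Ihh KO arrays were not alike in this list. The median over the 17 genes of the log2 level relative to the set controls was 0.96 in Ihh KO 1, 1.32 in Ihh KO 2 and 0.16 in Ihh KO 3. It was -0.37, -0.48 and -0.18 in the DKO arrays and -0.21 to 0.22 in the controls. Ihh KO 3, which also had the highest Gapdh ratio, and DKO 3 lay inside the control range, and DKO 1 and DKO 2 below it. The count of called members was 3 without Ihh KO 2, DKO 2 or DKO 3, 5 without Ihh KO 1 or any of controls 1, 2, 3, 5, 6 and 7, 6 without DKO 1, 15 without Ihh KO 3 and 0 without the matching of controls. Adding the fourth Ihh KO array gave 5, as did no intensity trend, and quantile normalization gave 6.

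**Figure D3:**
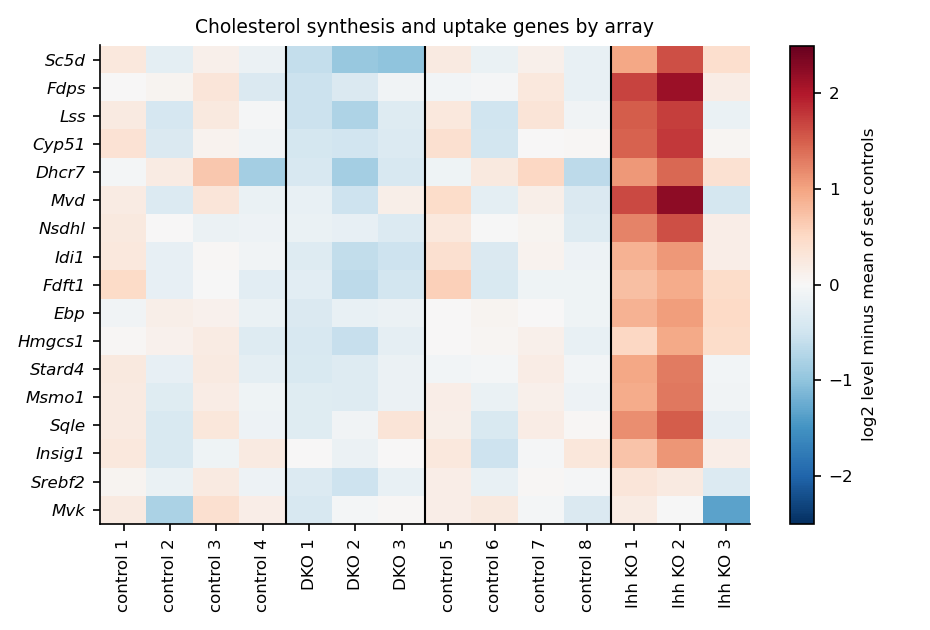
Log2 level of 17 cholesterol genes on each of the 14 arrays minus the mean of the controls of the same set, as a colour scale from -2.5 to 2.5. Ihh KO 1 and Ihh KO 2 carry the high values, Ihh KO 3 reads near its controls for most genes, and the DKO arrays are mostly below theirs.

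Of 8 tested genes of the theca and steroidogenic list 4 were lower in the added-loss difference (1.76% of all genes were). In the DKO arm 4 were called lower (1.51% of all genes were), and in the Ihh KO arm none was called, with 5 estimates above 0 and 3 below. The list median was -1.16, with -1.03 in DKO and 0.05 in Ihh KO. Star, which moves cholesterol into mitochondria, was at 2289, 2738 and 666 in DKO against 4243 to 7260, and at 8115, 10792 and 6827 in Ihh KO against 4398 to 7145. All DKO arrays were below their controls at a mean of 33.3%, and only Ihh KO 3 overlapped its own (difference -2.32, SE 0.42, adjusted p = 0.016). Scarb1, the HDL receptor that delivers cholesterol ester to these cells, was at 2420, 2275 and 1248 in DKO against 3075 to 5197, and at 5951, 7358 and 3534 in Ihh KO against 1689 to 3142 (difference -2.33, SE 0.32, adjusted p = 0.0053). Fdx1, the electron carrier of mitochondrial P450 enzymes, was at 7996, 6223 and 5503 in DKO against 9300 to 13639, and at 9339, 10068 and 9345 in Ihh KO against 8226 to 9968, a difference of -0.89 (SE 0.15, adjusted p = 0.013) that came from DKO. Cyp11a1, the side-chain cleavage enzyme, was at 6016, 4928 and 1055 in DKO against 5545 to 11658, and at 10176, 10546 and 9231 in Ihh KO against 4607 to 8738 (difference -2.07, SE 0.51, adjusted p = 0.042). A dimmer probe set of Cyp11a1 gave -0.98 and did not pass (adjusted p = 0.28, limma over all single-gene probe sets with no filter). Cyp17a1, the androgen-forming enzyme of theca, averaged 315 ± 245 in DKO against 3825 ± 4228 in controls 1 to 4 and 1150 ± 1551 in Ihh KO against 2920 ± 3133 in controls 5 to 8, a spread that left its difference of -1.43 uncalled (adjusted p = 0.63). Without Ihh KO 2 the calls of Star (adjusted p = 0.0624) and Fdx1 (0.0511) were lost, while Scarb1 was called in all 14 fits that left out 1 array. Cyp11a1 was called in 3 of the 14, namely those without control 4, DKO 1 or DKO 3, and without the matching of controls the list had 0 calls.

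Luteal levels differed widely between controls. The corpus luteum list had 1 call, lower, among 6 genes tested (1.76% of all genes were called lower) and none in either arm. Its median log2 level relative to its controls was 1.76, 1.85 and 1.29 in Ihh KO 1 to 3 and -0.33, 0.48 and -1.89 in DKO 1 to 3. Single controls ranged from -2.22 to 1.42, with control 4 and its match control 8 the lowest and controls 2 and 6 the highest. Ptgfr, the luteolytic prostaglandin F receptor, was at 410, 1840 and 55.5 in DKO and 4784, 5747 and 6371 in Ihh KO, against 66.9 to 3956 and 110 to 4089 in controls, and did not pass (difference -3.73, interval -6.57 to -0.89, adjusted p = 0.12). Hsd17b7, which serves both sterol synthesis and luteal estradiol production, was at 1764, 2111 and 890 in DKO against 1175 to 5952 and 9498, 9543 and 4243 in Ihh KO against 1377 to 5254, and was the 1 luteal gene called (difference -2.31, adjusted p = 0.037). It was lost without any of controls 1, 2, 3, 5, 6 and 7, among others. The part of luteal content in the sterol and steroidogenic results was not tested.

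Vessel genes gave smaller differences. Of 13 endothelial genes 3 were called lower (1.76% of all genes were) and none higher. Their median was -0.60 (DKO -0.37, Ihh KO 0.25), and 12 of the 13 estimates were below 0 (56.2% of all genes were above 0). Emcn, an endothelial sialomucin, was at 634, 539 and 377 in DKO against 907 to 1262, and at 1508, 1666 and 1119 in Ihh KO against 991 to 1440 (difference -1.24, SE 0.22, adjusted p = 0.015). Cldn5, the endothelial tight junction claudin, was at 808, 639 and 496 in DKO against 939 to 1129, and at 1085, 1150 and 1004 in Ihh KO against 830 to 1033 (difference -0.89, SE 0.17, adjusted p = 0.019). Tek, the angiopoietin receptor, was at 464, 378 and 249 in DKO against 481 to 627, and at 958, 1045 and 768 in Ihh KO against 644 to 732 (difference -1.03, SE 0.22, adjusted p = 0.030). For each of these the DKO arrays were all below their controls, and for Tek the Ihh KO arrays were all above theirs. Rgs5, a pericyte signalling regulator, was at 1058, 861 and 1023 in DKO against 1353 to 2115, and at 2620, 3006 and 2190 in Ihh KO against 1145 to 2157 (difference -1.36, SE 0.23, adjusted p = 0.012). It was the 1 called gene of 10 in the pericyte and PDGF list (1.76% of all genes were called lower). Dimmer probe sets of Rgs5 gave -1.10, -0.97 and -0.39 and did not pass (adjusted p = 0.063, 0.11 and 0.59, limma over all single-gene probe sets with no filter). The endothelial list had 0 calls without Ihh KO 2, 1 without DKO 3, 5 without Ihh KO 3 and 0 without the matching of controls, and 2 without any of controls 2, 3, 5 and 7, Ihh KO 1 or DKO 2.

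Of 13 smooth muscle genes 7 were called lower in DKO than in its controls (1.51% of all genes were) and none in Ihh KO (0.184%), where 12 of the 13 estimates were also below 0 (median -0.32). In the added-loss difference 2 were called lower (1.76% of all genes were), and all 13 estimates were below 0 (median -0.83). Acta2, smooth muscle actin, was at 6022, 3229 and 3921 in DKO against 7205 to 9186, and at 6199, 5741 and 5472 in Ihh KO against 5651 to 6718 (difference -0.85, SE 0.18, adjusted p = 0.031). Tpm2, a tropomyosin, was at 3702, 1962 and 2281 in DKO against 4680 to 6228 and 4673, 4239 and 4393 in Ihh KO against 4670 to 5778 (difference -0.83, SE 0.20, adjusted p = 0.037). DKO 1 was the least affected array for both. Without DKO 1 the list had 7 called members, 1 without control 1 or Ihh KO 3, and 0 without any of controls 2, 3, 5, 6 and 7, Ihh KO 1, Ihh KO 2, DKO 2 or DKO 3, without the matching of controls, with quantile normalization and with no intensity trend.

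**Figure D4:**
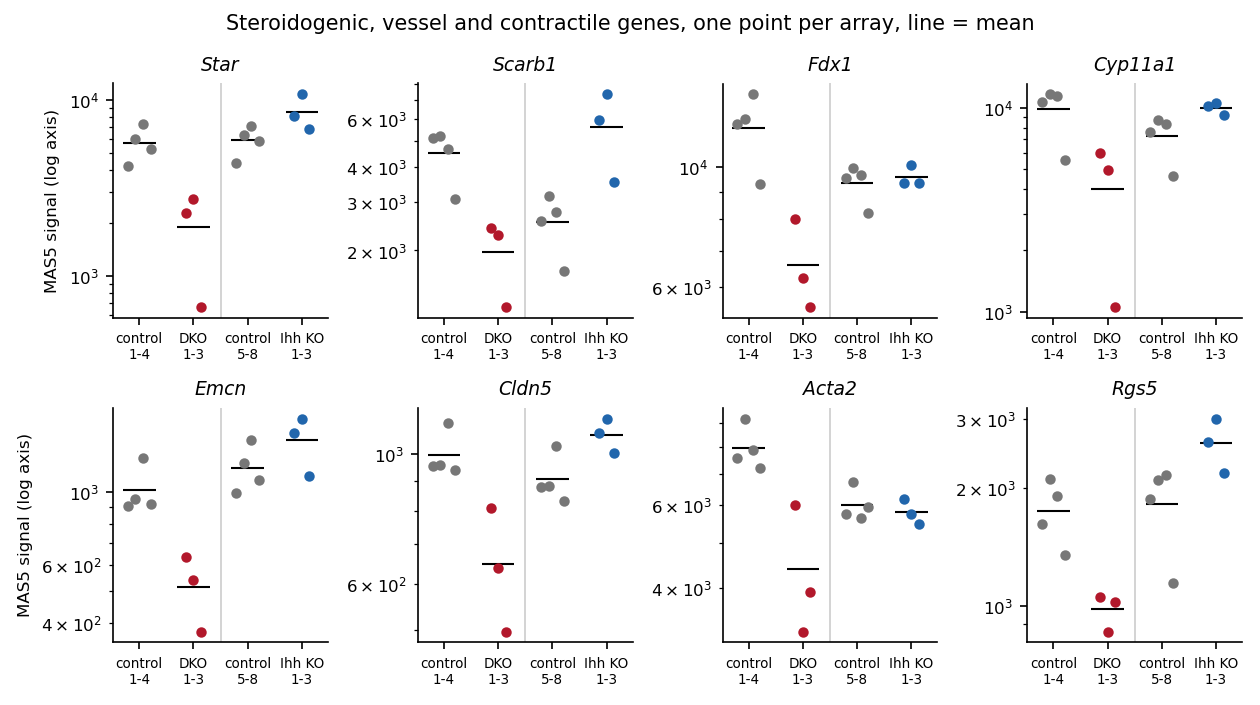
MAS5 signal (log axis) of 4 steroidogenic and 4 vessel or contractile genes, 1 point per array, with a line at the group mean. DKO points lie below controls 1 to 4 apart from Cyp11a1, where control 4 falls between DKO arrays, while Ihh KO points lie among or above controls 5 to 8, apart from the lowest point of Acta2.

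Epithelial genes rose in DKO, unevenly between its arrays. Of 6 tested genes of the oviduct epithelium list, used as markers of tissue next to the ovary, 2 were called higher in the added-loss difference (1.79% of all genes were). In the DKO arm 4 were called higher (1.38% of all genes were). The median log2 level of the list was 2.42 in DKO 1, 0.93 in DKO 2 and 3.70 in DKO 3, against 0.01, 0.13 and 0.37 in the Ihh KO arrays and -0.24 to 0.49 in the controls. Wfdc2, a secreted protein of oviduct and other epithelia, was at 699, 139 and 1691 in DKO against 58.9 to 82.5, and at 72.0, 72.9 and 79.5 in Ihh KO against 51.9 to 85.6 (difference 2.81, SE 0.66, adjusted p = 0.037). Plet1, an epithelial surface protein, was at 1949, 227 and 3456 in DKO against 41.9 to 249 and did not pass (difference 2.52, adjusted p = 0.10). Ovgp1, the oviductal glycoprotein that defines secretory cells of the oviduct, averaged 2821 ± 2443 in DKO against 128 ± 187 in controls 1 to 4, and 115 ± 134 in Ihh KO against 172 ± 259 (difference 3.96, adjusted p = 0.14). Pax8 and Foxj1, which mark secretory and ciliated oviduct cells, lay under the filter. Pax8 was at 140, 1.80 and 445 in DKO 1 to 3 and Foxj1 at 64.4, 2.54 and 667. For Wfdc2, Plet1, Pax8 and Foxj1 DKO 3 was thus the highest DKO array and DKO 2 the lowest, and DKO 2 had Pax8 and Foxj1 near the lowest signals of the array. The part of oviduct RNA in the epithelial results was not tested. The list had 4 calls without DKO 2, 0 without Ihh KO 2 or the matching of controls, and 1 without any of controls 1, 2, 5, 6 and 7, Ihh KO 1, Ihh KO 3, DKO 1 or DKO 3.

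The median level of the surface epithelium list lay above its controls on all 3 DKO arrays, DKO 2 included. That median level was 0.36 to 0.90 in DKO, 0.18 to 0.40 in Ihh KO and -0.29 to 0.19 in the controls. In the added-loss difference 2 of the 12 genes were called higher (1.79% of all genes were), with a median of 0.41. Cdh1, E-cadherin, was at 787, 468 and 1184 in DKO against 160 to 276, and at 257, 271 and 335 in Ihh KO against 164 to 244 (difference 1.46, SE 0.32, adjusted p = 0.031). Krt18, a keratin of simple epithelia, was at 1619, 1495 and 2649 in DKO against 507 to 870, and at 755, 858 and 950 in Ihh KO against 563 to 711 (difference 0.96, SE 0.24, adjusted p = 0.045). Of the 12 estimates of the list 8 were above 0 and 4 below. Lgr5 was among the 4 and did not pass (adjusted p = 0.131, limma), with values from -1.99 to -1.16 in the fits that left out 1 array. Epcam, an epithelial adhesion molecule on the oviduct list, was at 1029, 1111 and 1789 in DKO against 402 to 772 and 603, 824 and 887 in Ihh KO against 512 to 696, short of the threshold (difference 0.93, adjusted p = 0.071). The 2 surface calls were both absent with quantile normalization, with median centring and without the matching of controls. They were also both absent without any of controls 2, 3, 5 and 7, Ihh KO 1, Ihh KO 2 or DKO 3, and 1 remained without control 1, 6 or 8, Ihh KO 3 or DKO 2, while 3 were called without DKO 1.

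**Figure D5:**
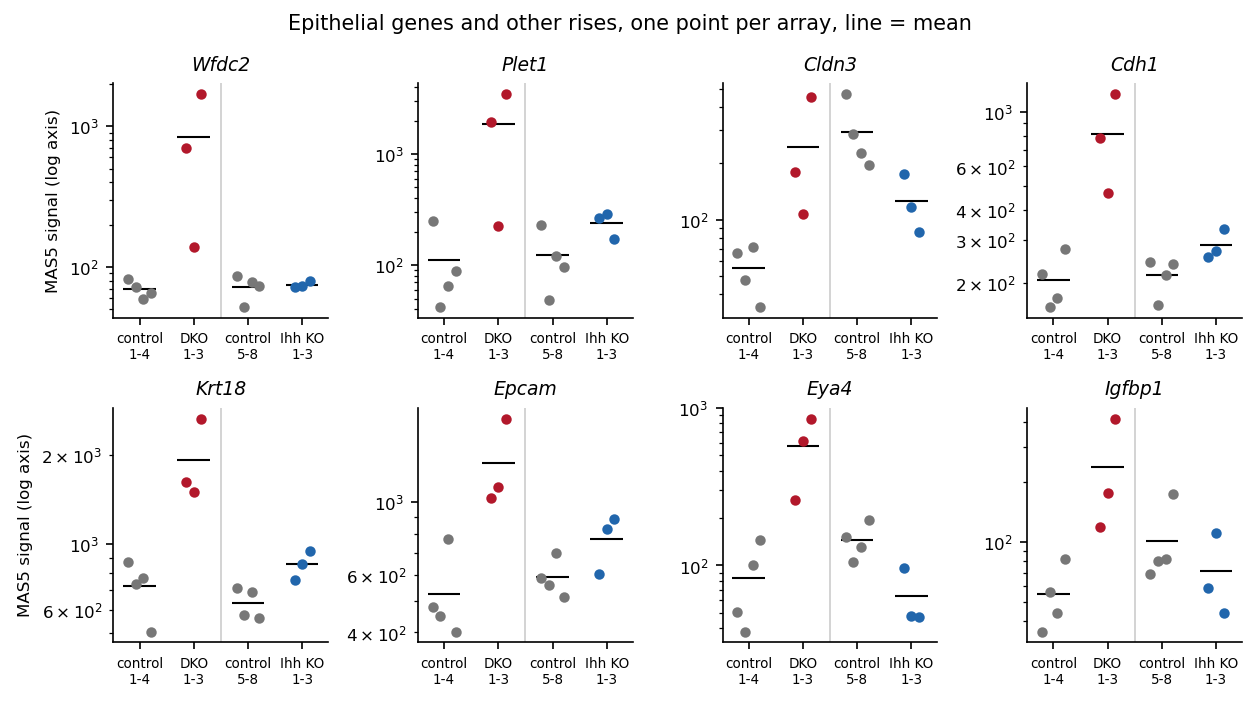
MAS5 signal (log axis) of 6 epithelial genes, Eya4 and Igfbp1, 1 point per array, with a line at the group mean. Wfdc2 and Plet1 spread over about 1 order of magnitude between DKO arrays, Cdh1, Krt18 and Epcam less so, and for Cldn3 the controls of the 2 sets differ.

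The rises of largest size differed in how the controls of the 2 sets compared. Eya4, a transcriptional coactivator and phosphatase, was at 261, 617 and 856 in DKO against 38.0 to 145, and at 95.8, 48.0 and 47.3 in Ihh KO against 105 to 193. It stood at 693% of its controls in DKO and 43.8% in Ihh KO, the largest rise of all the called genes named here (difference 3.84, SE 0.55, adjusted p = 0.0073). Igfbp1, a binding protein of insulin-like growth factors, was at 119, 176 and 418 in DKO against 35.5 to 82.6, and at 59.1, 111 and 44.1 in Ihh KO against 69.4 to 175 (difference 2.33, SE 0.50, adjusted p = 0.031). Calb1, a calcium buffer, was at 259, 399 and 1647 in DKO against 116 to 254 and 72.7, 120 and 105 in Ihh KO against 163 to 238 (difference 2.74, adjusted p = 0.022). Tns4, a focal adhesion protein of epithelia, was at 131, 140 and 294 in DKO against 29.1 to 91.8 (difference 2.40, adjusted p = 0.017). In these the DKO arrays exceeded their own controls, as they did for Cldn3. Controls 5 to 8 also ranged higher than controls 1 to 4 for Eya4 and Igfbp1, and Igfbp1 in DKO 1 lay inside the range of controls 5 to 8. For Cldn3 and Dlk2 the controls of the sets did not overlap, so that the called difference did not correspond to unlike signals in the mutants alone. Cldn3, an epithelial claudin, was at 179, 107 and 448 in DKO against 34.2 to 72.0, but at 175, 117 and 85.5 in Ihh KO against 196 to 467 (difference 2.98, SE 0.52, adjusted p = 0.014), so that no DKO array exceeded the highest of controls 5 to 8. Dimmer probe sets of Cldn3 gave 1.57 and 1.63 and did not pass (adjusted p = 0.11 and 0.15, limma over all single-gene probe sets with no filter). Dlk2, a membrane protein of the delta-like family, was at 127, 72.8 and 203 in DKO against 63.8 to 95.1, and at 23.7, 51.7 and 73.9 in Ihh KO against 95.9 to 351 (difference 2.55, adjusted p = 0.041). For Urah, Tmem213, Plekhs1 and Saxo2 the control means of the sets differed, at 342, 194, 120 and 112 in controls 5 to 8 against 66.2, 52.3, 41.0 and 38.6 in controls 1 to 4. The next brightest probe set of Saxo2 gave -0.05 (adjusted p = 0.96), and it stood for the gene in the fit without control 6, where the value was 0.16 against 2.71. Cbr2, a carbonyl reductase, completed the 12 largest rises (difference 2.40, adjusted p = 0.049). Of these 12 genes, Eya4 and Tns4 kept their calls in every fit that left out 1 array and included the gene, and Cldn3 and Calb1 lost theirs without Ihh KO 2 (adjusted p = 0.0507 and 0.0624). Igfbp1 was called in 9 of the 14 fits, and the other 7 in 2 to 5, where Saxo2 entered 13 fits and Plekhs1 11. Tns4 also entered 13 of the 14.

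Among the 11 falls of largest size, Dhh aside, the Ihh KO estimate was larger in size than the DKO estimate in 7. Plch2 and Slc47a1 passed in the DKO arm, and none of the 11 passed in the Ihh KO arm. Lipg, endothelial lipase, was at 761, 792 and 79.5 in DKO against 440 to 3552, and at 5273, 6003 and 4688 in Ihh KO against 377 to 2716 (difference -4.15, SE 0.83, adjusted p = 0.022). Plin4, a lipid droplet coat protein, was at 156, 228 and 280 in DKO against 96.4 to 1996, and at 2610, 2578 and 1525 in Ihh KO against 79.5 to 1219 (difference -4.06, SE 0.81, adjusted p = 0.022). In both genes all Ihh KO arrays were above controls 5 to 8, while the DKO arrays lay within or below the range of controls 1 to 4. Plch2, a phospholipase C, was at 84.1, 94.9 and 49.5 in DKO against 172 to 398, and at 855, 582 and 233 in Ihh KO against 103 to 382 (difference -2.95, SE 0.50, adjusted p = 0.013). Lipg, Plin4 and Plch2 lost their calls without Ihh KO 2 (adjusted p = 0.0717, 0.0723 and 0.0511), and Plin4 also without DKO 3 (0.0625). Slc47a1, a transporter of organic cations, fell in DKO, at 37.4, 17.7 and 14.2 against 99.3 to 248, and spread from 59.0 to 346 in Ihh KO (difference -2.75, adjusted p = 0.031). It was called in 7 of the 14 fits that left out 1 array. The remaining falls were Tnfrsf9, Slc12a8, Tlcd4, Unc13d, Cited1, Mfsd4a and Slc25a34, with differences from -4.65 to -2.58 and adjusted p from 0.031 to 0.049. Of the fits that left out 1 array, Tnfrsf9 and Tlcd4 kept the call in 1, Slc12a8 and Cited1 in 2, Unc13d in 3 of the 12 it entered, Slc25a34 in 4 and Mfsd4a in 6. Like the luteal genes, Tnfrsf9 ranged from 10.9 to 564 in controls 1 to 4 and Tlcd4 from 23.1 to 593, with control 2 the highest and control 4 the lowest.

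Of the 32 genes called in the Ihh KO arm, 11 were also called in the added-loss difference: 8 of the 9 that were higher in Ihh KO, all with a lower difference, and Osr2, Atp2b3 and Thap3 of the 23 that were lower. Tcim, Ebp and Elovl1 are among the 8, and Thap3, chosen after its values were seen, had a higher difference (0.90, SE 0.20, adjusted p = 0.034). Of the 8 genes of smallest p in that arm not described above, Tcim was the 1 with a called difference at its brightest probe set. Tcim, a small regulator linked to Wnt signalling, was at 1983, 2153 and 2551 in Ihh KO against 630 to 1094, and at 991, 918 and 783 in DKO against 685 to 1103. Ihh KO arrays were all above their controls at 254% of the mean, and the DKO arrays were within the range of theirs (difference -1.28, SE 0.20, adjusted p = 0.0092). Smpx, a small muscle protein, was at 76.3, 61.7 and 132 in Ihh KO against 440 to 543 and at 196, 130 and 89.4 in DKO against 387 to 525, with a difference of 0.68 (interval 0.03 to 1.33, adjusted p = 0.20). Aldh1b1, a mitochondrial aldehyde dehydrogenase, was at 233, 263 and 311 in Ihh KO against 559 to 784 and at 251, 225 and 199 in DKO against 513 to 953 (difference -0.34, interval -0.82 to 0.13). Acvr1, a BMP type I receptor, was at 852, 818 and 733 in Ihh KO against 1227 to 1499 and at 554, 612 and 478 in DKO against 948 to 1102 (difference -0.13, interval -0.44 to 0.19). Every mutant array of these 3 genes was below its controls, and the intervals leave room for steps of less than 2-fold in either direction for Aldh1b1 and Acvr1. Cdk5rap2, a centrosomal protein, differed by 0.31 (interval -0.25 to 0.87) and Slc45a3, a solute carrier, by 0.41 (interval -0.04 to 0.86). A dimmer probe set of Cdk5rap2 gave 0.93 and was called (adjusted p = 0.0475, limma over all single-gene probe sets with no filter). Fgfr2, a fibroblast growth factor receptor, and Hspa12a, a heat shock protein, differed by 0.47 (interval 0.17 to 0.77, adjusted p = 0.076) and 0.41 (interval 0.05 to 0.76, adjusted p = 0.16).

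The other lists gave few or no calls. For comparison, 1.79% of all genes were called higher and 1.76% lower in the added-loss difference, and 56.2% had an estimate above 0. None of 13 granulosa genes passed (median 0.27) and none of 12 macrophage genes (median 0.20). Mast cell genes were high in DKO, at median log2 levels of 4.12, 2.77 and 1.19 in DKO 1 to 3, 0.72, 1.09 and 0.25 in Ihh KO 1 to 3 and -0.81 to 0.76 in controls. Of the 5 tested, 3 were called higher in the DKO arm (1.38% of all genes were) and none in the added-loss difference. Cma1, mast cell chymase, was at 1429, 530 and 144 in DKO and 434, 524 and 198 in Ihh KO against 36.3 to 81.9 and 46.0 to 151 in their controls (difference 0.92, interval -0.56 to 2.41). Mast cell levels were highest in DKO 1 and lowest in DKO 3, where the oviduct genes were highest. Of 14 oocyte genes all had estimates above 0 (median 0.43) and 1 was called, Sohlh1 (difference 1.23, adjusted p = 0.042), whose controls averaged 150 ± 34.0 in the Ihh KO set against 75.6 ± 6.54 in the DKO set. All 11 cell division genes likewise had estimates above 0 (median 0.57), and 1 was called, the checkpoint kinase Bub1 (0.67, adjusted p = 0.039). In the arms all 11 were below 0 in Ihh KO (median -0.42) and above 0 in DKO (median 0.13), and none was called in either. Among 17 laminin and basement membrane genes Lamc3 was lower and Col4a4 higher (0.78, adjusted p = 0.040). Single genes were called higher among 16 Wnt genes (Wnt5b, 1.20, adjusted p = 0.046), 12 elastic fibre genes (Mfap2, 0.74, adjusted p = 0.041), 5 ovulation genes (Btc, 1.13, adjusted p = 0.041) and 5 motile cilia genes (Tekt1, 2.07, adjusted p = 0.042). Of the 14 fits that left out 1 array, Btc and Sohlh1 kept the call in 2, Wnt5b, Mfap2, Col4a4 and Tekt1 in 3 and Bub1 in 4, and none of these 7 lists had a higher call with quantile normalization. Of the 11 insulin-like growth factor genes Igfbp1, described above, was the 1 called (list median near 0). No gene passed among 5 lymphatic, 4 adipocyte, 13 immediate early and 5 steroid receptor genes, with medians of -0.29, 1.35, -0.24 and 0.73.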

How the data were processed

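Per the labels' protocols, ovarian total RNA was amplified by the WT-Ovation Pico method and labelled with biotin. For each array and probe set the authors deposited 1 intensity on a linear scale, named MAS5 in the submitters' processing notes (version not given in the sources used here), whose mean after trimming 2% at each end was 500 on every array. These values were taken without a second normalization as log2(signal + 7.02), the 10th percentile of all signals, so changes of dim genes are understated. Probe sets with a mean under the 40th percentile (log2 6.18, signal 65.7) were left out, and each gene was represented by its brightest single-gene probe set, which left 12482 genes. Of 45101 probe sets 64 were controls, 34945 had 1 gene symbol, 932 several and 9160 none outside the controls. Of the single-gene probe sets 34741 matched RefSeq by Entrez identifier and 0 symbols changed.

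Log2 values of 14 arrays were fitted in R 4.3.3 with limma 3.58.1: 4 group means, a correlation of 0.648 between matched controls (duplicateCorrelation), eBayes with an intensity trend, two-sided, Benjamini-Hochberg adjustment over all genes, threshold 0.05. The procedure was tested on simulated data. Where nothing says that arrays of a group came from separate animals, p-values measure only the spread between arrays, which may be technical, and the small number of arrays limits the precision. No depth applies to arrays.

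The comparison, the gene lists and the matching of controls were chosen with earlier results of these data known. The genes named are the measured Hedgehog genes, the 12 largest rises and falls of the added-loss difference that were called and whose changes from the set's control mean did not overlap between the mutants, the 8 of smallest p in each arm not already named, and up to 4 members of smallest p of each list, skipping predicted genes. Others are said to be chosen after their values were seen, except single marker genes of the lists (Cyp17a1, Ovgp1, Pax8, Foxj1 and Cldn4), which were also picked after their values were seen. Lists are described by counts and medians with no test. Alternatives were other scalings, pseudocounts, filters, probe set rules, array weights and moderation, other sets of arrays, no matching, a replicate block, and each array left out. Gene names and promoters come from RefSeq tables of GRCm38.p6, and figures were drawn in Python 3.11.15 with matplotlib 3.10.9.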

Additional observations from a re-analysis of the deposited data

Results flagged for a closer look

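Among 270 groups of 4 control arrays checked (135 named genes in 2 sets), 16 held 1 array set apart from the other 3 beyond Dixon's 95% critical value, which chance does in about 1 in 20 groups. In the steroidogenic, luteal and dividing-cell genes the array was control 4: Cyp11a1 at 5545 (others 10671 to 11658), Hao2 at 2052 (5068 to 5959) and Top2a at 2465 (1795 to 1870). In the endothelial genes it was control 3, with Emcn at 1262 (907 to 953) and Cldn5 at 1129 (939 to 957). Among Hedgehog genes, Ptch1 stood at 5104 in control 8 (4236 to 4351), Boc at 447 in control 5 (343 to 349), Kif3a at 669 in control 4 (599 to 610), Disp1 at 231 in control 6 (306 to 317), Hhat at 307 in control 1 (406 to 419) and Csnk1a1 at 6195 in control 5 (5416 to 5503). Urah was at 83.0 in control 8 (359 to 477) and Fgfr2 at 3229 in the same array (2407 to 2513). Tppp3 was at 476 in control 5 (201 to 218), Mfap5 at 914 in control 2 (685 to 689) and Mfap4 at 1999 in control 6 (1116 to 1193).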

How the results depend on the processing

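The main counts were 443 for the added-loss difference, 361 for DKO against its controls and 32 for Ihh KO against its controls. The added-loss count was 204 with quantile normalization (83 higher, 121 lower), 262 with no intensity trend, 605 with the Dhh KO arrays in the fit, 1995 with array weights, 3363 for DKO minus Ihh KO with no controls subtracted, 3 (Dhh included) without the matching of controls and, added after seeing the data, 34 without matching but with the Dhh KO arrays (21 higher, 13 lower). The median difference over all genes was 0.02 with quantile normalization, -0.17 with median centring and 0.15 with no filter. The DKO count was 246 with median centring and 718 with array weights. The Ihh KO count was 57 with quantile normalization, 81 with median centring (80.2% higher, against 28.1%), 869 with array weights, 57 with the Dhh KO arrays, and 0 with the fourth Ihh KO array, where limma left 1449 genes at an unadjusted p under 0.05. Leaving out 1 array gave 41 to 823 calls for the added-loss difference, 166 to 412 for DKO and 4 to 101 for Ihh KO. Of the 57 genes named by rule and called in the added-loss difference, Dhh excepted, none changed sign in any alternative, and without matching 1, Aebp1, kept its call. Of these 57, 29 lost the call with quantile normalization, 24 with no intensity trend and 21 with no filter. Label numbers did not pair the mutants (correlations of deviations -0.0744, 0.0793 and -0.149), and a replicate block by label number gave 2 added-loss calls. Arrays have no count depth. Dim genes such as Gli1 limit what can be tested.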
